A study of Homo sapiens with 6 samples.

Results

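Motile cilia beat by means of the axoneme, a ring of doublet microtubules around a central pair. Axonemal dynein arms on the doublets are the motors, radial spokes and the central pair regulate the beat, and ruler and assembly proteins set where the arms dock. FOXJ1, a forkhead transcription factor, is known as the main activator of the genes for these parts, together with RFX factors that bind a palindromic promoter element called the X-box. In the vertebrate embryo, cells of the node carry motile cilia that drive fluid flow, and FOXJ1 is known from the node, notochord and floor plate.

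The 38 genes described here are FOXJ1, RFX2, RFX3, MCIDAS, 13 axonemal dynein heavy chains, and genes for dynein intermediate and light chains, ruler and assembly factors, radial spokes, the central pair and tektins. They were matched by symbol among 27672 genes in the expression table, and each had exactly 1 row. The set was chosen by function, but it was selected on the measured rise of FOXJ1 in the same comparison that is described below. The values of FOXJ1 are therefore a description without a test, and the calls of the other 37 members are given beside those of all genes.

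RNA-seq was carried out on H9 human embryonic stem cells (hESCs, day 0, untreated, n = 3) and on neuromesodermal progenitor-like cells derived from them (NMP-L cells, day 3, n = 3). NMP-L cells resemble the bipotent cells of the embryo's tail end that give rise to spinal cord and paraxial mesoderm. They had been kept for 3 days in neurobasal medium with N2 and B27, bFGF at 20 ng/ml and the Wnt pathway activator CHIR99021 at 3 µM. Per the labels, the hESCs grew without feeders on fibronectin in DEF medium with bFGF at 30 ng/ml and Noggin at 10 ng/ml, whereas the study's methods name TESR medium on Geltrex. The methods also describe BMP and TGFβ inhibitors added from day 2 onwards, in their account of the further step to neural progenitors, and the labels of the NMP-L libraries do not mention these. Both conditions come from a single cell line, so line to line variation was not measured. The comparison asks which genes differ between pluripotent cells and these progenitors.

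Library totals ran from 19454543 to 19744142 expected counts in hESCs and from 20687062 to 23036426 in NMP-L cells. The marker genes matched the labels, since POU5F1 and NANOG were lower in NMP-L cells, T, CDX1, CDX2 and NKX1-2 were higher, and SOX2 was expressed in all 6 libraries. Levels are given for each library in expected counts, and in TPM (scaled by transcript length and by library total) where genes are set beside each other. Folds are NMP-L over hESC from edgeR's quasi-likelihood test, which was fitted to 15517 genes that passed a low-count filter, with an adjusted p under 0.05 counted as a call. Exons of 11 members (RFX2, DNAH10, DNAH11, DNAH17, DNAL4, DNALI1, CCDC39, CCDC103, RSPH1, RSPH9 and SPAG17) overlap those of another protein-coding gene, and their values are less certain if reads were counted without strand.

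Promoter sequences from RefSeq (GRCh38.p14, 250 bases before to 50 bases after the start site) were available for 29 of the 38 members. Some genes had several promoters, and a match in any of them was counted. The searched X-box pair reads GTNNCC, any 3 bases, then GNNAC, on either strand. It was found in 10 of the 29 members (34.5%) and in 1592 of 27305 genes with a promoter in the table (5.83%). The first 5 windows below belong to members called higher in NMP-L cells and the last 3 to members that were not called. They are shown because the element occurred on both sides of that divide. Capitals mark the matched element, written on the strand of the gene.
SPAG6 (chr10:22345464-22345493, plus strand): tccggtagGTTGCCCGGGAGACgcgggtac
DNAH9 (chr17:11598453-11598482, plus strand): gcgtccccGTCGCTAGGGAAACcgatgcag
DNAH1 (chr3:52316206-52316235, plus strand): aggctgatGTTGCCATGGCAACccggatag
SPAG16 (chr2:213284272-213284301, plus strand): gcaacatcGTTGCCACGGTAACtgggaggc
DNALI1 (chr1:37556915-37556944, plus strand): agggggcgGTTTCCATGGTGACggcaaaca
DNAH11 (chr7:21543003-21543032, plus strand): gggacaccGTCCCCCGGGAAACgggacgcg
DNAH2 (chr17:7717718-7717747, plus strand): tgcccgggGTTGCCATGGGGACgcgtgcag
RSPH9 (chr6:43644877-43644906, plus strand): gccatactGTGGCCGTGGCAACtgaagaca

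In DNAH9 the element matched on the opposite strand only, and in the other 7 windows it matched on both strands. The remaining members with an X-box pair were DNAH12 and SPAG17. Of the 10 members with the pair, 5 were called higher in NMP-L cells, and of the 19 members with a promoter but no pair, 8 were called higher. Among all genes tested, 29.1% were called higher. Both groups include members below the filter, which could not be called. These are DNAH12 with the pair, and MCIDAS, DNAH8, DNAH10, DNAI2, ROPN1L and TEKT1 without it. The groups were not compared by a test. The shorter element GTTGCC overlaps the pair in several windows above. It was found in 14 of the 29 members (48.3%) against 14.6% of all genes with a promoter. GTTACC, which overlaps the pair in SPAG16, was found in 4 members (13.8%) against 7.88%.

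The forkhead motifs were rarer. TGTTTAC was found in 3 members (DNAH9, SPAG16 and TEKT1, 10.3%) against 4.19% of all genes with a promoter. TGTTTGC was found in DNALI1 alone (3.45%) against 4.76%. The match in DNAH9 (chr17:11882666-11882688) lay in a different promoter of that gene from the X-box pair shown above. A match describes the letters in a promoter window of 300 bases and is not evidence of binding. FOXJ1, RFX2, DNAH17, DNAH3, CCDC103, RSPH1, HYDIN, TEKT2 and PIFO had no promoter in the table.

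Across the 37 members other than FOXJ1, 16 were called higher in NMP-L cells (43.2%), 2 were called lower (5.41%), 12 were not called and 7 were below the filter. Among all 15517 genes tested, 29.1% were called higher and 26.7% lower. The shares of the 37 count the 7 members below the filter, whereas those of all genes leave such genes out. A threshold of 2-fold left 10 members higher, beside 9.38% of all genes, and 2 lower, beside 9.18% of all genes. Fitted without the filter, so that every member was tested, 17 of the 37 were higher (45.9%) and 2 lower (5.41%), beside 22.7% and 20.5% of the 20918 genes with a count. The median log2 fold change of the 37 was 0.68, and that of all genes with a count was 0.03. Because the set was proposed from this comparison, these shares describe it and are not independent evidence for its direction.

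**Figure D1:**
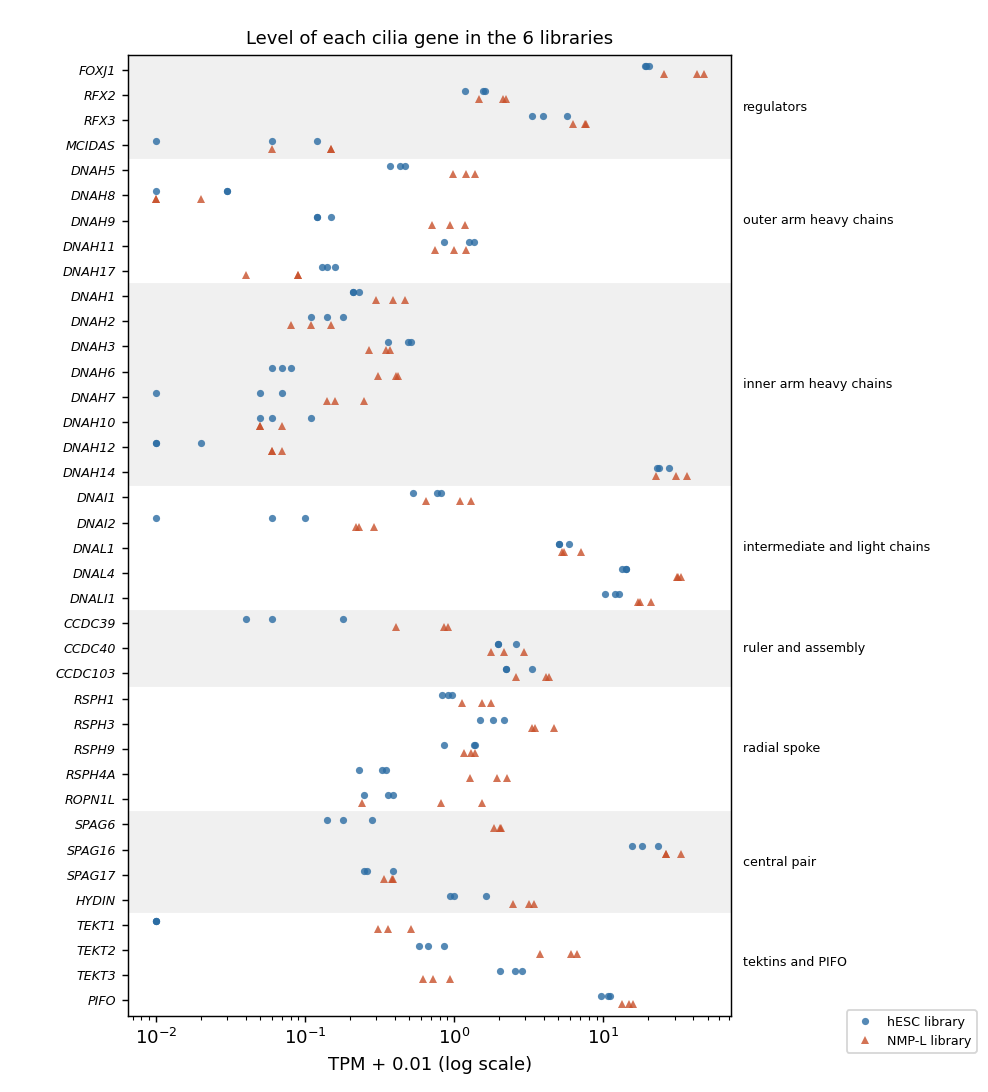
Level of each of the 38 genes in the 6 libraries, as TPM plus 0.01 on a log scale (x axis), with genes grouped by role (y axis). Circles are hESC libraries and triangles are NMP-L libraries. FOXJ1, DNAH14, DNAL4, DNALI1, SPAG16 and PIFO lie above 10 TPM in both conditions on average, and most dynein heavy chains lie below 1 TPM.

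Among the regulators, FOXJ1 (GRCh37 chr17:74132414-74137326) had 453, 510 and 461 counts in hESCs and 1145, 657 and 1293 in NMP-L cells. In TPM this was 19.24, 20.08 and 18.90 against 42.16, 25.64 and 47.06. The libraries of the conditions did not overlap, the hESC libraries were close together, and NMP-L replicate 2 was far below the other two. The mean level was 19.4 ± 0.607 TPM in hESCs and 38.3 ± 11.2 TPM in NMP-L cells (SD, n = 3), and the fitted fold was 1.84 (log2 0.88 ± 0.17, SE). Without NMP-L replicate 2 the log2 fold change was 1.09. FOXJ1 was thus already expressed in pluripotent cells. Its mean TPM there was below that of DNAH14 (24.7 ± 2.39) and within the spread of SPAG16 (18.9 ± 3.86).

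RFX3, an X-box binding factor of ciliated cells, had 275, 185 and 188 counts in hESCs and 392, 365 and 496 in NMP-L cells. Its libraries did not overlap, and it rose 1.64-fold (log2 0.71 ± 0.16, adjusted p = 0.0031). RFX2, its close relative, had 43, 62 and 60 counts against 93, 58 and 91. The libraries of RFX2 overlapped and it was not called (log2 0.32 ± 0.21, adjusted p = 0.22). MCIDAS, a coactivator that starts multiciliated cell differentiation, had 2, 0 and 1 counts in hESCs and 3, 1 and 3 in NMP-L cells. No library of MCIDAS exceeded 3 counts, the floor used for detection, so no fold is given.

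Other RFX family members moved in both directions. RFX1 fell by 0.90 on the log2 scale (SE 0.11, adjusted p = 3.7e-05), RFX5 by 0.36 (adjusted p = 0.0076) and RFX8 by 2.96 (SE 0.44, adjusted p = 0.00015). RFXAP, which acts with RFX5 and RFXANK on MHC class II promoters, rose by 0.63 (adjusted p = 0.0040). RFX7 and RFXANK were not called, and RFX4 and RFX6 were below the filter.

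The outer arm heavy chains, which supply much of the power of the beat, split. DNAH5 (GRCh37 chr5:13690437-14011927) had 60, 55 and 69 counts in hESCs and 196, 151 and 227 in NMP-L cells. Its partner in the outer arm, DNAH9, had 5, 6 and 4 counts against 48, 32 and 33. Neither gene had overlapping libraries. DNAH5 rose 2.65-fold (log2 1.40 ± 0.16, adjusted p = 2.2e-05) and DNAH9 6.32-fold (log2 2.66 ± 0.35, adjusted p = 5.6e-05). In TPM, DNAH5 went from 0.413 ± 0.0503 to 1.17 ± 0.196 and DNAH9 from 0.12 ± 0.0173 to 0.937 ± 0.24, so that the pair, well separated in hESCs, differed by less than the SD of DNAH9 in NMP-L cells. The TPM of DNAH9 rests on a shorter effective length, with 25.4% of the counts per TPM of DNAH5.

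DNAH11, an outer arm chain known from the node and from human laterality defects, did not follow them. It had 172, 116 and 166 counts in hESCs and 144, 102 and 177 in NMP-L cells, with overlapping libraries (log2 -0.34 ± 0.19, adjusted p = 0.15). It was called lower without hESC replicate 2 (log2 -0.51, adjusted p = 0.044) and with the length correction (log2 -0.42, adjusted p = 0.049). DNAH17, known as an outer arm chain of the sperm tail, had 17, 21 and 16 counts against 12, 11 and 4. All of its NMP-L libraries were below its hESC libraries, and it fell by 1.21 on the log2 scale (SE 0.40, adjusted p = 0.022). Its call was lost without hESC replicate 2 (adjusted p = 0.077), without NMP-L replicate 3 (adjusted p = 0.080), with DESeq2 (adjusted p = 0.055) and with limma on log2(TPM + 0.1) (log2 -0.53, adjusted p = 0.13). DNAH8, also of the sperm tail, had 3, 3 and 0 counts against 0, 1 and 0, all at or under the floor.

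Of the 8 inner arm heavy chains, 3 were called higher (37.5%), beside 29.1% of all genes tested. DNAH6 had 8, 7 and 6 counts in hESCs and 54, 39 and 56 in NMP-L cells. DNAH7 had 4, 7 and 0 counts against 31, 16 and 20. Both were low in every hESC library and separated fully from the NMP-L libraries. DNAH6 rose 5.95-fold (log2 2.57 ± 0.29, adjusted p = 1.7e-05) and DNAH7 5.07-fold (log2 2.34 ± 0.58, adjusted p = 0.0049). The size for DNAH7 rested on few counts, since its log2 fold change was 3.16 without hESC replicate 2 and 1.76 without hESC replicate 3. On log2(TPM + 0.1), where the added 0.1 exceeds the hESC level of both genes, limma gave differences of 1.55 for DNAH6 and 1.04 for DNAH7, and both were still called. DNAH1 had 24, 26 and 28 counts against 64, 38 and 54 and rose 1.70-fold (log2 0.77 ± 0.24, adjusted p = 0.018). The call of DNAH1 was lost without hESC replicate 1 (adjusted p = 0.054), hESC replicate 2 (adjusted p = 0.053) or NMP-L replicate 1 (adjusted p = 0.086), with DESeq2 (adjusted p = 0.055) and with limma on TPM (adjusted p = 0.054).

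The other inner arm chains were not called or not tested. DNAH3 had 58, 59 and 42 counts in hESCs and 48, 33 and 46 in NMP-L cells (log2 -0.55 ± 0.22, adjusted p = 0.051). Its adjusted p lay on either side of the threshold under other scalings, at 0.044 with RLE size factors and 0.087 with library size alone. DNAH2 gave a log2 difference of -0.42 ± 0.34 (adjusted p = 0.31) and DNAH14 one of 0.19 ± 0.15 (adjusted p = 0.30). The high TPM of DNAH14 rests on a short effective length, with 7.74% of the counts per TPM of DNAH5. DNAH10, with 5 to 13 counts, and DNAH12, with 0 to 2, were below the filter. DNAH12 had 1, 0 and 0 counts against 2, 2 and 2, all at or under the floor.

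Among all 13 heavy chains, 5 were called higher, 1 lower and 4 were not called, while 3 were below the filter. Fitted without the filter, 5 of the 13 were higher (38.5%, beside 22.7% of all genes with a count). In that fit 1 was lower (7.69%, beside 20.5%). The chains that rose came from both arms.

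Of the intermediate and light chains, DNAL4 gave the most even values. DNAL4 had 182, 186 and 190 counts in hESCs and 468, 466 and 471 in NMP-L cells, which corresponds to 13.9 ± 0.465 and 32.1 ± 1.05 TPM. It rose 2.15-fold (log2 1.11 ± 0.11, adjusted p = 5.5e-06). DNALI1, an inner arm light intermediate chain, had 299, 262 and 293 counts against 467, 454 and 573. It rose 1.49-fold without overlap (log2 0.57 ± 0.11, adjusted p = 0.0011).

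The outer arm intermediate chains were low. DNAI1 had 12, 19 and 19 counts in hESCs and 34, 16 and 29 in NMP-L cells, with overlap (log2 0.42 ± 0.33, adjusted p = 0.29). DNAI2, its partner at the base of the outer arm, had 0, 2 and 1 counts against 5, 6 and 5. This was a ratio of 4.79 with a 95% counting interval from 1.37 to 25.7. An exact two-sided permutation test gave p = 0.1, the smallest that 3 libraries against 3 allow, and the fit without a filter did not call it (adjusted p = 0.066). DNAL1, a light chain bound to the outer arm motor, was present at 5.31 and 5.91 TPM and was not called (log2 0.05 ± 0.12, adjusted p = 0.73).

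Among the ruler and assembly genes, CCDC39 and CCDC40 encode partners that form 1 molecular ruler along the doublet. CCDC39 had 6, 2 and 1 counts in hESCs and 16, 34 and 34 in NMP-L cells. CCDC40 had 71, 95 and 71 counts against 116, 63 and 87. CCDC39 rose 7.71-fold without overlap (log2 2.95 ± 0.54, adjusted p = 0.00064), and CCDC40 overlapped and was not called (log2 -0.06 ± 0.22, adjusted p = 0.82). Without hESC replicate 1, which held most of its hESC counts, CCDC39 gave a log2 fold change of 3.89. It was 2.53 without hESC replicate 3 and 2.16 with limma on log2(TPM + 0.1). CCDC39 at 0.0833 ± 0.0757 TPM was far below CCDC40 at 2.16 ± 0.361 TPM in hESCs, and the gap was smaller in NMP-L cells (0.713 ± 0.273 and 2.27 ± 0.591 TPM). CCDC103, a dynein arm attachment factor, was not called (log2 0.41 ± 0.25, adjusted p = 0.18).

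Of the 5 radial spoke genes, 2 were called higher (40.0%), beside 29.1% of all genes tested. RSPH4A, a spoke head protein, had 8, 6 and 9 counts in hESCs and 66, 34 and 57 in NMP-L cells. RSPH3, a spoke stalk protein, had 124, 92 and 111 counts against 227, 224 and 317. Neither overlapped. RSPH4A rose 5.73-fold (log2 2.52 ± 0.33, adjusted p = 6.2e-05) and RSPH3 1.99-fold (log2 0.99 ± 0.16, adjusted p = 0.00024). The other spoke head genes were not called by edgeR. RSPH1 had 11, 10 and 12 counts against 25, 15 and 22 (log2 0.67 ± 0.31, adjusted p = 0.087), with no overlap, and limma on TPM called it higher (log2 0.64, adjusted p = 0.030). RSPH9 had 7 to 13 counts in every library (log2 -0.01 ± 0.35, adjusted p = 0.99). ROPN1L, a spoke component, was below the filter with 3, 3 and 2 counts against 14, 2 and 8.

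The central pair gene SPAG6 (GRCh37 chr10:22634374-22743153) had the largest fitted fold of the members that passed the filter. It had 6, 3 and 4 counts in hESCs and 54, 47 and 55 in NMP-L cells, from 0.19 ± 0.0721 to 1.96 ± 0.116 TPM. The NMP-L libraries lay close together and far above the hESC libraries. SPAG6 rose 9.99-fold (log2 3.32 ± 0.32, adjusted p = 4.6e-06). HYDIN, which builds a projection of the central pair, had 45, 54 and 74 counts against 170, 128 and 156. It rose 2.24-fold without overlap (log2 1.16 ± 0.19, adjusted p = 0.0003). HYDIN has a near-identical partial copy elsewhere in the genome, so its value is uncertain to the extent that reads were shared. None of its counts was fractional, but this cannot settle the matter if the copy was missing from the annotation used.

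SPAG16, which binds SPAG6 in the central pair, was abundant in both conditions, with 260, 216 and 178 counts in hESCs and 337, 321 and 436 in NMP-L cells. It rose 1.42-fold without overlap (log2 0.51 ± 0.15, adjusted p = 0.014). The call of SPAG16 was lost without hESC replicate 3 (adjusted p = 0.083) or NMP-L replicate 3 (adjusted p = 0.056). SPAG17 overlapped and was not called (log2 0.22 ± 0.27, adjusted p = 0.50).

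Tektins are filament proteins inside the doublet wall, and the 3 listed here did not move together, with TEKT3 lower and the others higher. TEKT2 (GRCh37 chr1:36549695-36553876) had 11, 8 and 9 counts in hESCs and 100, 53 and 93 in NMP-L cells. TEKT3 had 40, 34 and 46 counts against 11, 12 and 17. TEKT2 rose 7.38-fold (log2 2.88 ± 0.30, adjusted p = 1e-05), from 0.69 ± 0.137 to 5.49 ± 1.54 TPM. TEKT3 was 3.50-fold lower (log2 -1.81 ± 0.27, adjusted p = 0.00017), from 2.47 ± 0.417 to 0.75 ± 0.164 TPM. TEKT3 was thus the higher of the pair in hESCs and TEKT2 the higher in NMP-L cells, in every library.

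TEKT1 was at 0 counts in all 3 hESC libraries and at 7, 4 and 5 in NMP-L cells. It was at least 1.60-fold higher, against a floor of 3 counts in each hESC library. Below the filter, it gave an exact permutation p = 0.1, and it was called in the fit without a filter (adjusted p = 0.0058). PIFO, a protein of the ciliary base involved in cilium disassembly, had 228, 218 and 231 counts in hESCs and 352, 302 and 386 in NMP-L cells. It rose 1.31-fold without overlap (log2 0.39 ± 0.11, adjusted p = 0.011).

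**Figure D2:**
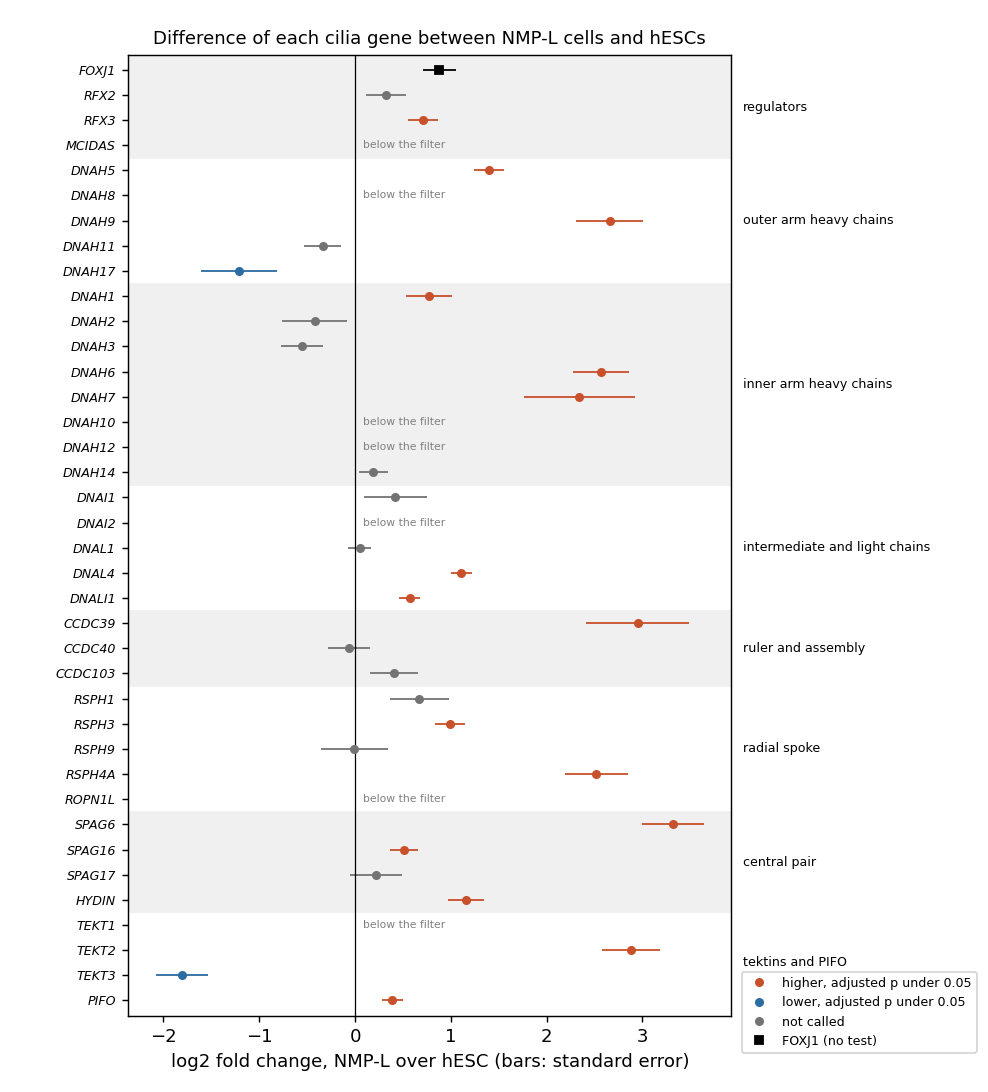
Log2 fold change of NMP-L over hESC for the 31 members that passed the filter, with bars of 1 standard error (x axis), grouped by role (y axis). Red points are called higher, blue points lower and grey points are not called, and the black square is FOXJ1, which has no test. SPAG6, CCDC39, TEKT2, DNAH9, DNAH6, RSPH4A and DNAH7 lie above 2, and TEKT3 and DNAH17 lie below -1.

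The spread of the NMP-L libraries had a pattern of its own. NMP-L replicate 2 was the lowest of the 3 NMP-L libraries in 25 of the 38 members (65.8%), compared with 26.3% of all genes tested, after scaling for library size and composition. Its level was 59.4% of the mean of the other NMP-L libraries for FOXJ1, 60.3% for TEKT2 and 60.7% for RSPH4A. SPAG6 stood at 94.9%, DNAL4 at 109% and CCDC39 at 152%, so the members did not all share the dip. In the bulk RNA, fewer cells of a type and less RNA per cell cannot be told apart.

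Some genes of the node, notochord and floor plate were low in the same library. FOXA2, a forkhead factor of these tissues, had 0, 5 and 2 counts in hESCs and 473, 264 and 535 in NMP-L cells, where replicate 2 was at 57.7% of the other two. T, a factor of notochord and of neuromesodermal progenitors, stood at 55.4%, PKD1L1, a channel subunit of the node cilium, at 52.4%, and NOTO, a homeodomain factor of the node, at 22.4%. Of the 18 genes on this list, replicate 2 was lowest in 10 (55.6%), and in the rest another library was lowest. Of 105 other motile cilium genes described below it was lowest in 59 (56.2%). The dip was not particular to these lists. Replicate 2 was also lowest in 71.4% of 7 markers used for the labels and 62.5% of 8 other RFX genes. The share was 42.9% of 7 endoderm markers, 40.0% of 45 transport and BBSome genes, 26.7% of 15 multiciliation genes and 0.0% of 3 paraxial mesoderm markers. The part of the node, notochord and floor plate genes in the levels of the cilia genes was not tested. Without NMP-L replicate 2 16 members other than FOXJ1 were called higher and 2 lower, the same numbers as with all libraries.

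**Figure D3:**
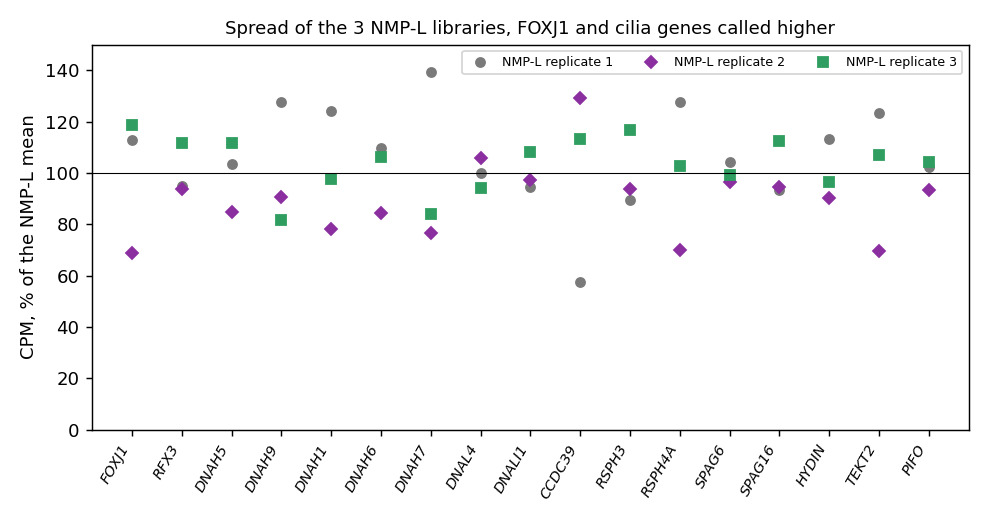
Scaled level (CPM) of FOXJ1 and of the 16 other members called higher in NMP-L cells (x axis), in each NMP-L library as a percentage of the mean of the 3 NMP-L libraries (y axis). Replicate 2, drawn as diamonds, is the lowest library in 11 of the 17 genes, with the widest gaps at FOXJ1, RSPH4A and TEKT2, and the highest at CCDC39 and DNAL4.

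On the node, notochord and floor plate list as a whole, 6 genes were called higher (T, FOXA2, PKD1L1, NODAL, CHRD and GDF1), 1 lower (LEFTY2), 2 were not called and 9 were below the filter. PKD1L1 rose by 3.72, NODAL by 2.28 and CHRD by 2.18 on the log2 scale, and LEFTY2 fell by 3.28. NOTO had 3, 2 and 3 counts in hESCs and 36, 8 and 43 in NMP-L cells. SHH had 0 counts in every hESC library and 12, 8 and 9 in NMP-L cells, at least 2.90-fold higher against the same floor in each library. The summed level of the list was 26.3 to 32.6 TPM in hESCs and 61.6 to 98.7 TPM in NMP-L cells. GDF1, LEFTY1, LEFTY2 and CFC1 had fractional counts, which come from reads shared with other genes.

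Of the other cell types checked, endoderm was represented by 7 markers and paraxial mesoderm by 3. The endoderm markers summed to 6.41 to 7.93 TPM in hESCs and 10.3 to 13.9 TPM in NMP-L cells. FOXA2, which also marks endoderm, was placed with the node, notochord and floor plate genes and is not in this sum. HHEX was called higher, CXCR4 was not called and 5 were below the filter. The fit without a filter called 2 of the 7 higher (28.6%), beside 22.7% of all genes with a count. SOX17, which defines endoderm together with FOXA2, had at most 1 count in any library. The paraxial mesoderm markers summed to 5.45 to 7.40 TPM and 3.31 to 4.31 TPM, with TBX6 called lower. MSGN1 had 0 counts in every hESC library and 7, 4 and 2 in NMP-L cells, and MEOX1 had at most 1. Without a filter, the fit called 1 of the 3 mesoderm markers higher and 1 lower, beside 22.7% and 20.5% of all genes with a count.

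A longer list of 105 other genes of the motile cilium, drawn up by function, gave 45 genes called higher (42.9%) and 10 lower (9.52%). Among all genes tested, 29.1% were higher and 26.7% lower. Of the rest of the list, 19 were not called and 31 were below the filter. With the 2-fold threshold 35 remained on the higher side and 3 on the lower, beside 9.38% and 9.18% of all genes tested. The 3 lower genes were DNAAF3 (log2 -1.55), C11orf70 (log2 -1.38) and CFAP69 (log2 -1.09). Fitted without a filter, 54 of the 105 were higher (51.4%) and 11 lower (10.5%), beside 22.7% and 20.5% of all genes with a count. The median log2 fold change of the list was 0.85, or 0.78 with genes at 0 in hESCs set to their bound. Among the genes that passed the filter, the 6 with the largest differences were CFAP126, CFAP61, ENKUR, EFCAB1, SPEF2 and DRC3, all higher. Below the filter, the unfiltered fit also called C20orf85 (0, 0 and 0 counts against 5, 3 and 7) and ZMYND10 (1, 0 and 1 against 10, 13 and 22, log2 4.04) higher. It called ROPN1 (3, 6 and 3 against 0, 0 and 1, log2 -3.36) lower. The sizes for ZMYND10 and ROPN1 are uncertain, since 1 condition of each lay at or under the floor.

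CFAP126, a protein of the doublet surface known as Flattop, was at 0 counts in every hESC library and at 47, 35 and 59 in NMP-L cells. It was at least 14.1-fold higher, against the floor of 3 counts a library, and reached 6.48 TPM. CFAP61, a radial spoke-associated protein, had 0, 0 and 1 counts against 15, 13 and 22, a ratio of 44.9 with a 95% counting interval from 7.70 to 1810. ENKUR had 1, 2 and 0 counts against 37, 18 and 53, a ratio of 32.4 (10.8 to 159). These 3 genes were all but undetected in hESCs, with every hESC library at or under the floor. The sizes of the 2 ratios are therefore uncertain, and they cannot be ranked against the bound for CFAP126. SPEF2, a central pair protein, had 5, 4 and 7 counts against 53, 60 and 87 (log2 3.38 ± 0.32, adjusted p = 4.4e-06). EFCAB1 and DRC3, proteins of the outer arm docking region and of the nexin link, gave log2 fold changes of 4.14 and 3.22.

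Genes for intraflagellar transport and the BBSome, which build and serve immotile and motile cilia alike, served as a comparison list. All 45 passed the filter, 28 were called higher (62.2%), 3 lower (6.67%) and 14 were not called. Beside them, 29.1% of all genes tested were higher and 26.7% lower. KIF3C, KIF17 and MKKS were the lower genes. Of the 28 called higher, 6 were higher by 2-fold or more (BBS5, BBS1, DYNC2H1, WDR60, TTC30B and KIFAP3). The median log2 fold change of the list was 0.44, beside 0.68 for the members and 0.85 for the other motile genes. BBS5 gave the largest difference (log2 1.86, adjusted p = 1.2e-05). Among genes with a promoter, the X-box pair was found in 7 of 35 on this list (20.0%) and in 18 of 63 other motile genes (28.6%).

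The 15 genes of the multiciliation programme, which multiplies centrioles in cells with many cilia, gave 2 genes higher (STIL, log2 0.30, and CEP152, log2 0.83), 2 lower (TP73, log2 -0.66, and PLK4, log2 -0.27), 7 not called and 4 below the filter. Each direction made up 13.3% of the list, while 29.1% of all genes tested were higher and 26.7% lower. Of those on the list that passed the filter, none was called at a difference of 2-fold or more. GMNC, which acts upstream of MCIDAS, had 1, 0 and 0 counts in hESCs and 6, 2 and 7 in NMP-L cells. CCNO, a cyclin needed for centriole amplification, had 0, 0 and 1 counts against 4, 5 and 6. Both exceeded 3 counts in NMP-L cells, which MCIDAS did not, and each gave a ratio of 13.5 with a 95% counting interval from 2.07 to 568. The fit without a filter called both higher (adjusted p = 0.026 for GMNC and 0.020 for CCNO). CEP152, STIL and PLK4 also serve ordinary centriole duplication in dividing cells.

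**Figure D4:**
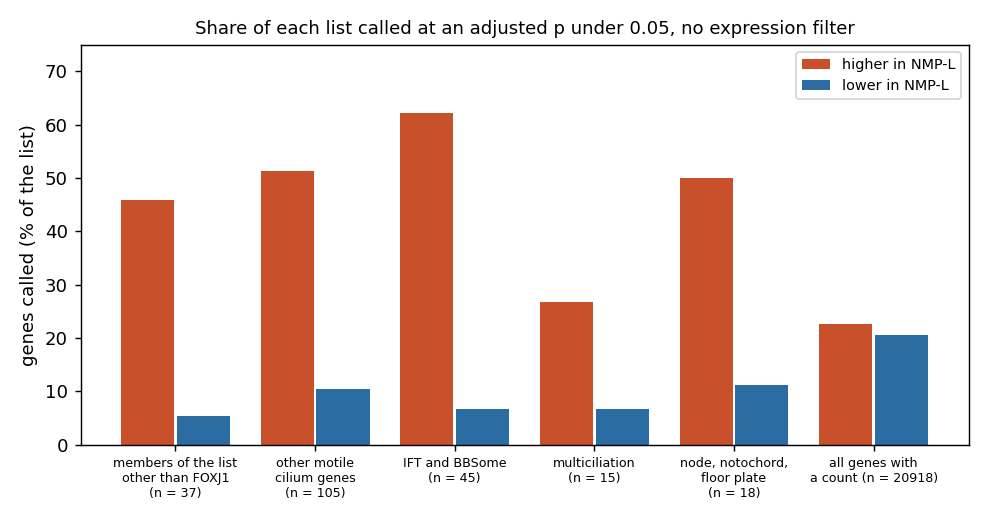
Percentage of each gene list called higher (red) or lower (blue) in NMP-L cells by edgeR without an expression filter (y axis), for the members other than FOXJ1, 4 comparison lists and all genes with a count (x axis). The higher share is 45.9% for the members, 51.4% for other motile cilium genes, 62.2% for intraflagellar transport and the BBSome, 26.7% for multiciliation and 22.7% for all genes, and 9 of the 18 node, notochord and floor plate genes were higher.

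In absolute terms most dynein heavy chains stayed low, below 1 TPM, whereas some other axonemal genes did not. Of the 38 members, 16 reached a mean of 1 TPM in hESCs and 20 in NMP-L cells, and 6 reached 10 TPM in each. The 6 were FOXJ1, DNAH14, DNAL4, DNALI1, SPAG16 and PIFO. All 38 members together summed to between 122 and 139 TPM in hESCs and between 187 and 238 TPM in NMP-L cells, FOXJ1 included.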

How the data were processed

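RNA-seq of polyadenylated RNA (KAPA mRNA HyperPrep, single-end, 76 bp) was analysed in 6 libraries, 3 hESC and 3 NMP-L, grouped by their labels. Per gene, the authors deposited expected counts from RSEM, not normalised between libraries, and TPM, which RSEM scales by effective length and library total. The study's text does not describe this experiment. The submitters' processing notes name cutadapt 1.9.1, STAR 2.5.2a, RSEM 1.3.0, DESeq2 1.12.3 and build hg19, without their roles, and whether reads were counted by strand is not given in the sources used here.

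Expected counts were rounded and tested in R 4.3.3 with edgeR 4.0.16 (filterByExpr with a minimum count of 10, TMM, glmQLFit and glmQLFTest, adjusted by Benjamini-Hochberg over all genes tested). The standard error is the log2 fold change divided by the square root of F. Exact permutation tests used log2(CPM + 0.1). Counting intervals are exact binomial (Clopper-Pearson) and cover counting error only, since reads carry no molecular identifiers. The pipeline was tested on simulated data. Alternatives used RLE, upper-quartile or library-size scaling, DESeq2 1.42.0, limma 3.58.1 on log2(TPM + 0.1), other filters, a lowess length correction (span 0.3), a replicate block and leaving out each library. Coordinates of genes came from GENCODE release 44 on GRCh37 and promoters from RefSeq.

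The members and the other lists were chosen with earlier results of these data known. The text names all 38 members, the RFX family, marker genes used as a check of the labels and, from each other list, up to 6 genes with the largest change among those called and at least 2-fold. DNAAF3, C11orf70, CFAP69, C20orf85, ZMYND10, ROPN1, NOTO, SHH, GDF1, the multiciliation genes, the lower transport genes (KIF3C, KIF17 and MKKS) and the endoderm and paraxial mesoderm markers are not covered by it, and they were picked with their values in view. The labels call the libraries biological replicates but do not say how the cultures were separated. The edgeR p-values set a difference against the variation between these libraries, moderated over all genes, and speak only for these libraries. Same-numbered libraries did not deviate together (correlations of -0.366, -0.0579 and -0.133), and no 2 libraries of a condition agreed within sampling noise.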

Additional observations from a re-analysis of the deposited data

How the results depend on the processing

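Of 441 log2 fold changes recomputed for 30 members, 409 kept their direction and their side of the threshold, 11 lost a call, 8 gained one and 13 changed sign. Of the 18 members called, 15 kept their call in every alternative that tested them, and the exceptions were DNAH17, DNAH1 and SPAG16. The sign changes concerned members near 0: DNAL1 (-0.05 with the length correction, -0.06 to 0.12 when a library was left out), CCDC40 (0.01 with library size only, 0.05 with limma on TPM, -0.31 to 0.10 when a library was left out) and RSPH9 (0.07 with library size only, 0.12 with limma, 0.03 with the length correction, 0.01 with the replicate block, -0.22 to 0.13 when a library was left out).

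The members called higher, 16 without FOXJ1, were 9 when at least 10 counts were required in every library, which removes genes with low hESC counts from the test, and 15 to 16 when a library was left out. The members called lower were 2, but 3 with RLE and with upper-quartile scaling, and 1 with DESeq2 and with limma. They were 4 with the length correction, and 1 to 3 when a library was left out. The replicate block left the members other than FOXJ1 at 16 higher and 2 lower, and gave 3916 higher and 3644 lower of all genes. Among other motile genes, the filter of 10 counts in every library left 20 higher. Multiciliation genes called higher were 4 without a filter, 1 with the replicate block and 1 to 3 when a library was left out. Those called lower were 1 with library size only, limma, no filter, the stricter filter or the block, and 1 to 2 when a library was left out. Node, notochord and floor plate genes called higher were 3 with the stricter filter, and those called lower were 2 without a filter, 0 with the stricter filter and 1 to 3 when a library was left out. With a floor of 10 counts, 5 members were at or under it in all libraries, in place of 3. The cause of these differences, other than the stricter filter, was not tested. The median log2 fold change of all genes was 0.03, 0.10 with library size only and 0.12 with limma.

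Depth limits the low members: 7 were below the filter, and for them a difference was in general not detectable at this depth. With 3 libraries a condition an exact permutation test cannot go below 0.1.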

Other observations

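The number of counts that make up 1 TPM, which follows the effective transcript length that RSEM used, varied widely among the heavy chains, although the longest annotated transcripts of DNAH5, DNAH14 and DNAH9 are similar. Relative to DNAH5, it was 7.74% for DNAH14, 25.4% for DNAH9 and 25.9% for DNAH12, and between 78.4% and 94.6% for the remaining heavy chains. SPAG16 stood at 7.69% and HYDIN at 31.3%. The longest annotated transcripts were 15781 bases for DNAH5, 14065 for DNAH14 and 13711 for DNAH9. The TPM of DNAH14 (24.7 ± 2.39 in hESCs and 29.8 ± 6.81 in NMP-L cells, SD, n = 3) and of SPAG16 (18.9 ± 3.86 and 28.6 ± 3.95) thus came from 264 to 486 and from 178 to 436 counts a library, while DNAH5 had 0.413 TPM from 55 to 69 counts in hESCs. The order of levels between members given in TPM carries these lengths with it.

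Exons of 11 members overlapped exons of another protein-coding gene in the annotation (RFX2, DNAH11, DNAH17, DNAH10, DNAL4, DNALI1, CCDC39, CCDC103, RSPH1, RSPH9 and SPAG17). If reads were counted without strand, those of the overlapping genes cannot be told apart. None of the 38 members had a fractional expected count in any library, compared with 8.44% of all genes.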
